A study of Mus musculus with 12 samples.

Results

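Genes of the DNA damage response and of DNA repair were compared between vitrified and fresh mouse ovarian follicles. Members were the rows of the authors' comparison table whose symbol stands in a list of 40 genes for damage kinases, the p53 axis, break repair, excision repair and mismatch repair. By symbol, 38 of the 40 were found among 11806 genes. H2afx, the histone variant H2AX, was listed under its newer symbol H2ax, which RefSeq gives as the same gene, so its values are given but it is left out of the counts. Ogg1, an oxidised guanine glycosylase, was not analysed here. An adjusted p was given for 36 of the 38, and for the other 2, Palb2 and Ddb2, the totals were below those of every gene with an adjusted p.

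The follicles came from 16-day-old mice of the outbred CD-1 stock, and vitrification, cooling into a glass-like solid, is a way to store them. Fresh follicles (n = 6) and vitrified follicles (n = 6) were each enclosed in 0.5% alginate and kept one to a well for 8 days in medium holding recombinant follicle-stimulating hormone at 10 mIU/mL, and single-follicle lysates gave Smart-seq libraries. All 12 follicles therefore shared these culture conditions, and RNA was taken at the end of culture. Whether fresh and vitrified follicles were cultured in the same run is not shown by the labels used here. The labels give neither the vitrification procedure nor which follicles shared a mouse. Whether the p-values treat follicles of the same mouse as independent is not stated. The authors' deposited table gives for each gene a total pooled over the libraries, a log2 fold change of vitrified over fresh and its p-value, with no value for a single follicle, so levels and spread by follicle are not shown.

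Cells meet DNA damage in layers. The kinases ATM, ATR and DNA-PK sense broken or stalled DNA and pass the signal to CHK1, CHK2 and p53, which hold the cell cycle and can start cell death. Separate machines then mend separate lesions: homologous recombination and end joining for double-strand breaks, base and nucleotide excision for altered bases, and mismatch repair for copying errors. In the ovary this system is known for guarding the oocyte genome, and dividing granulosa cells use it during replication.

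No repair gene passed the adjusted p threshold of 0.05 between vitrified and fresh follicles. In the authors' deposited table the count was 0 of 36, where 58 of 10963 genes, or 0.529%, were called over the whole table. At a threshold of 0.1 the count was again 0, against 0.711% of all tested genes. An unadjusted p under 0.05 was found for 2 of the 36, Parp1 and Mre11a, or 5.56%, which is near the 7.02% over all tested genes in the authors' deposited table. Both had lower values in vitrified follicles, a direction with such a p in 3.79% of tested genes, and 0 members had higher values with such a p, against 3.24%. Of the 36, 24 had log2 fold changes below and 12 above 0, so 66.7% were lower, against 53.2% of all tested genes. Their median log2 fold change was -0.09, against -0.02 over all tested genes. Every tested member lay between -0.72 and 0.69, so none reached a 2-fold difference, which 1.77% of all tested genes did in the authors' deposited table.

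**Figure D1:**
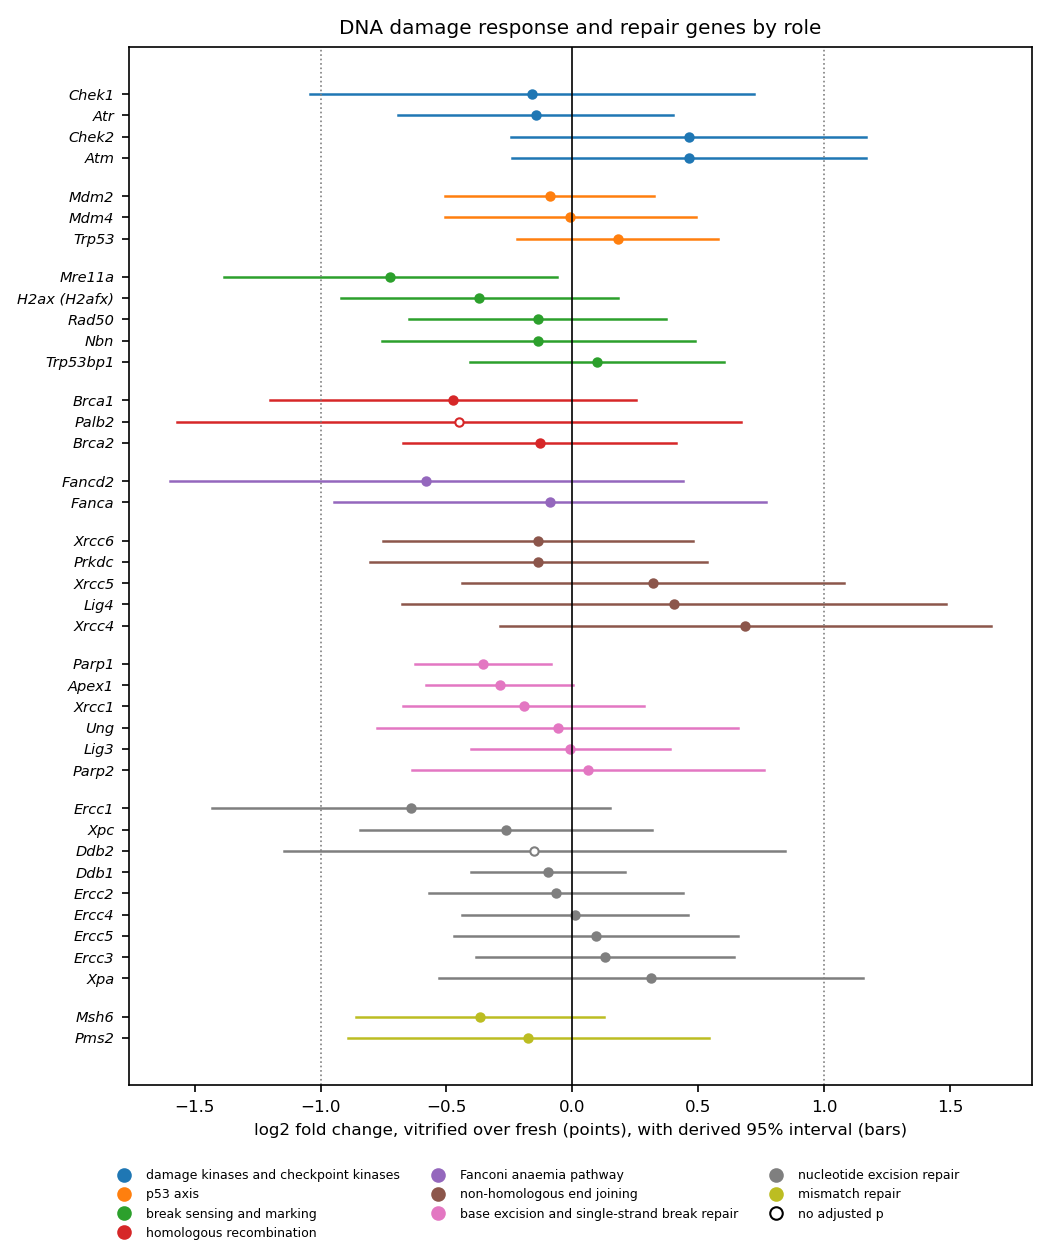
Log2 fold change of each repair gene, vitrified over fresh, grouped by role, with the 95% interval derived from its p-value (bars) and dotted lines at a 2-fold difference. With intervals derived by a normal distribution, those of Parp1 and Mre11a lie below 0, and those of the other genes cross 0.

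The intervals show how much change these libraries could still hold. A 95% interval was derived for each gene from the deposited log2 fold change and p-value. It lay wholly within 2-fold for 25 of the 36 members, or 69.4%, against 69.1% of all tested genes. The members with a pooled total of 300 or more were all among them, 10 between 300 and 1000 and 5 above. Between 100 and 300 it held for 10 of 15, and under 100 for 0 of 6. For Xrcc4, Lig4, Xpa, Chek1, Fancd2 and Ercc1, the 6 of lowest total, the interval still includes a 2-fold difference at this depth.

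**Figure D2:**
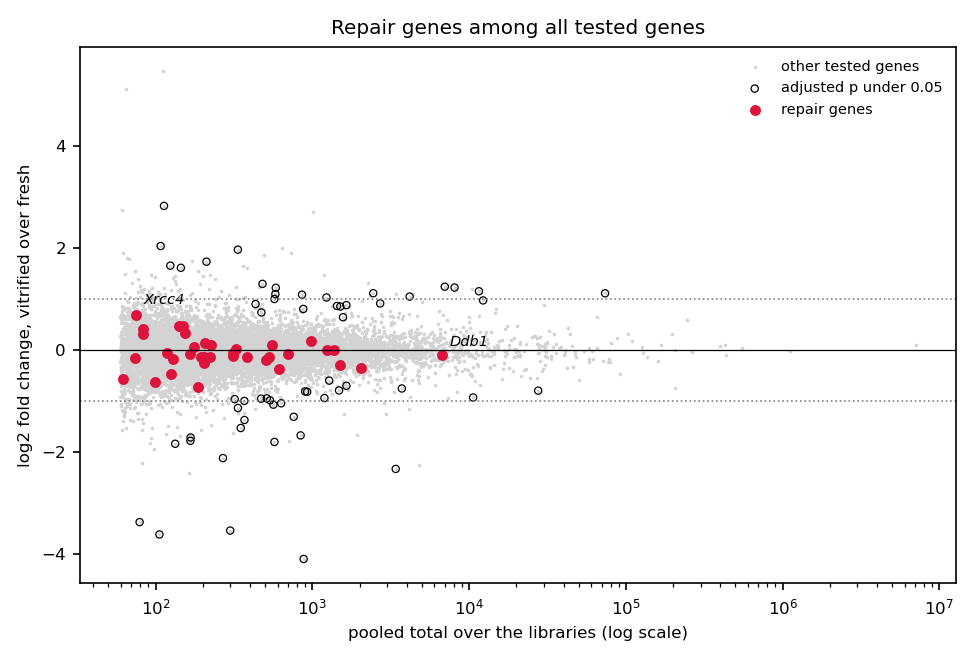
Log2 fold change, vitrified over fresh, against the pooled total (log scale) for all tested genes (grey), called genes (open circles) and repair genes (red), with dotted lines at 2-fold. Repair genes spread from -0.72 to 0.69 and narrow towards high totals, with Ddb1 at 6681 the most abundant.

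Levels among the members were compared as pooled total per kilobase of annotated exon. Apex1, the main endonuclease at sites that have lost their base, stood highest at 1050.1 per kilobase, followed by Ddb1, the adaptor of the DDB1-CUL4 ubiquitin ligase, at 1042 per kilobase. H2ax had 691 per kilobase, Parp1 384 and Trp53 242. The lowest were Palb2 at 5.79, Fancd2 at 7.82 and Atr at 8.58 per kilobase. Annotated exons cover every isoform, so genes with long rare isoforms read too low, and the error of these levels over follicles is unknown. Of the 1.422 kb of Apex1 exon, 877 bases are shared with Pip4p1 on the other strand. The first place of Apex1, close above Ddb1, is therefore uncertain if counting ignored strand.

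Some members lie head to head with another gene, and the stretch before the start is printed for 3 of these, Apex1, Atm and Trp53, and for Parp1, which has no such neighbour and is shown for its low p. A head-to-head neighbour is here a protein-coding gene on the other strand that starts within 1000 bases. One was annotated for 15 of 36 tested members (41.7%), against 17.4% of 9890 tested protein-coding genes. The stretches before the RefSeq start of 4 genes (GRCm38.p6), trimmed to bases outside annotated exons, follow 5′ to 3′ on the gene's strand. Capitals mark a CCAAT box (CCAAT, or ATTGG on the other strand) or a GC box (GGCGGG, or CCCGCC on the other strand). Parp1 (chr1:180568641-180568890, plus strand) has the lowest p of the members, Apex1 (chr14:50924894-50924948, plus) has the next lowest p within base excision repair, and Atm (chr9:53536741-53536921, minus) and Trp53 (chr11:69580256-69580358, plus) head the kinase and p53 branches.
Parp1: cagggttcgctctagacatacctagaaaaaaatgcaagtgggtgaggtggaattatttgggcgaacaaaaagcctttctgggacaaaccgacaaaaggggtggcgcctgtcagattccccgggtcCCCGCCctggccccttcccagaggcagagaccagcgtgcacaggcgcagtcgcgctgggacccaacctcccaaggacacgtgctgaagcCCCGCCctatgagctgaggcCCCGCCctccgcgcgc
Apex1, towards Osgep: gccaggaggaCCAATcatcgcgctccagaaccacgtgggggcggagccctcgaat
Atm, towards Npat: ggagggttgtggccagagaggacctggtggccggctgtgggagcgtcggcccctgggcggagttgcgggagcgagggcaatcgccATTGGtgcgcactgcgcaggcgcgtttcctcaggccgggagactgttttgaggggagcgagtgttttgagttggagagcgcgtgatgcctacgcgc
Trp53, towards Wrap53: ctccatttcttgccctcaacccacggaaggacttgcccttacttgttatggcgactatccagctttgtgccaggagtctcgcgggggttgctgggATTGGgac

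RefSeq promoter windows, 250 bases before to 50 after the start, were matched for 31 of the 38 members. On either strand, a CCAAT box was found in 18 of the 31 (58.1%), against 39.9% of 8052 windows of tested genes and 37.9% of all 27025 windows. A GC box was found in 19 of 31 (61.3%), against 66.7% of tested genes and 35.5% of all. The E2F words TTTGGCGC, TTTCCCGC, TTTGCCGC and TTTCGCGC, which can overlap a GC box, were found in 4 of 31 (12.9%), those of Brca2, Chek2, Msh6 and Xrcc6, against 4.43% of tested genes and 2.32% of all. The CHR word TTTGAA was found in 1 window, that of Ercc5 (3.23%), against 11.3% and 18.1%. These are matches of letters, with no measure of binding here.

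Of the 4 kinase genes, 2 were higher and 2 lower. Atm, which answers double-strand breaks, stood on the log2 scale at a fold change of 0.46 (derived interval -0.24 to 1.16, p = 0.196, adjusted p = 0.934, pooled total 140) in the authors' deposited table. For Chek2, the kinase downstream of ATM, the value was 0.46 (-0.24 to 1.17). Atr, which answers stalled replication forks, stood at -0.15 and its downstream kinase gene Chek1 at -0.16 in the authors' deposited table. All 4 intervals include 0, and only that of Atr (-0.69 to 0.40) lies within 2-fold, so the data do not separate the ATM branch from the ATR branch.

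The genes of the p53 axis lay close to 0. Trp53, the transcription factor at the centre of the response, had a log2 fold change of 0.18 (-0.22 to 0.58, p = 0.376, adjusted p = 0.999, pooled total 981) in the authors' deposited table. Mdm2, the ubiquitin ligase that removes p53 and is itself a p53 target, stood at -0.09 (-0.50 to 0.32). Mdm4, its relative that blocks p53 activity, stood at -0.0077 in the authors' deposited table, and this sign turns when fold changes are centred on the median of all genes (0.014). All 3 intervals lay within 2-fold, and 9.08% of the windows of 50 bases of Mdm4 are shared with other genes, so its reads are uncertain.

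The tested genes among those that p53 is known to switch on showed no common direction. Of 30 listed targets 22 were tested, with 10 higher, 12 lower and a median log2 fold change of -0.03. The targets Pmaip1, Gadd45a, Fas, Gdf15, Tigar and Zfp365 had no row under these symbols. Bbc3 (0.34) and Rrm2b (0.13) had no adjusted p. The p53 targets were therefore read only in part. Calls numbered 0, where 0.529% of all tested genes were called. An unadjusted p under 0.05 was found for 2 (9.09%), near the 7.02% over all tested genes. Perp, a membrane protein gene of cell death and adhesion, stood at 1.13 (0.31 to 1.96, adjusted p = 0.325) on a pooled total of 104 in the authors' deposited table. Zmat3, an RNA-binding protein gene, stood at -0.67 (-1.28 to -0.05, adjusted p = 0.625). Bax, which permeabilises mitochondria in apoptosis, was at -0.50 and the epoxide hydrolase gene Ephx1 at 0.60 in the authors' deposited table.

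Within break sensing and marking, Mre11a had the largest log2 fold change below 0 of all tested members. It encodes the nuclease of the MRE11-RAD50-NBS1 complex, which binds broken ends and activates ATM. Mre11a, on chromosome 9 from 14784654 to 14837123 in GRCm38, was 1.65-fold lower in vitrified follicles, with a log2 fold change of -0.72 (-1.39 to -0.06, p = 0.0318, adjusted p = 0.617, pooled total 187) in the authors' deposited table. Its partners in the complex, Rad50 and Nbn, both stood at -0.14 in the authors' deposited table, with intervals of -0.65 to 0.37 and -0.76 to 0.49 that overlap that of Mre11a. H2ax, phosphorylated around breaks, was at -0.37 (-0.92 to 0.18, adjusted p = 0.931), and 7.41% of its sequence windows of 50 bases are shared with other genes. Trp53bp1, which steers breaks towards end joining, stood at 0.10 in the authors' deposited table.

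Homologous recombination copies from an intact sister chromatid, and the Fanconi anaemia pathway unhooks crosslinks. All 5 genes listed for them had values below 0. Brca1, which starts the choice of recombination, stood at -0.47 (-1.20 to 0.25, p = 0.201, adjusted p = 0.938, pooled total 126) in the authors' deposited table. Brca2, the loader of the recombinase, was at -0.13 and Palb2, which joins BRCA1 to BRCA2, at -0.45 on a pooled total of only 42.5 and with no adjusted p. In the Fanconi pathway, Fancd2, the protein that is ubiquitinated at crosslinks, had a log2 fold change of -0.58 (-1.60 to 0.44, p = 0.265, adjusted p = 0.981, pooled total 62.0) and Fanca, of the core ligase complex, -0.09 in the authors' deposited table. Each of these 5 intervals includes 0.

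End joining genes were split, with 3 higher and 2 lower. Xrcc4, the scaffold of the ligation step, had the highest log2 fold change of the tested members, 0.69 (-0.29 to 1.66, p = 0.168, adjusted p = 0.917), on a pooled total of 74.5 in the authors' deposited table. Its partner Lig4, the ligase itself, stood at 0.40 (-0.68 to 1.48). Xrcc5 and Xrcc6, which encode the Ku80 and Ku70 subunits of the ring that binds ends, stood at 0.32 and -0.14, and the DNA-PK kinase gene Prkdc at -0.14 in the authors' deposited table. The 3 higher genes are those of lowest total in the group, and the intervals of all 3 reach beyond 2-fold.

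Base excision and single-strand break repair held the member of lowest p. Parp1, which senses strand breaks and builds poly(ADP-ribose) chains, lies on chromosome 1 from 180568924 to 180601254. It was 1.28-fold lower in vitrified follicles, with a log2 fold change of -0.36 (-0.62 to -0.09, p = 0.00979, adjusted p = 0.376, pooled total 2033) in the authors' deposited table. Over all genes listed, 298 had a lower p. Apex1 stood at -0.29 (-0.58 to 0.0038, p = 0.0530, adjusted p = 0.723, pooled total 1493), and Xrcc1, the scaffold that PARP1 recruits, at -0.19 in the authors' deposited table. Ung, which removes uracil, was at -0.06, the ligase gene Lig3 at -0.0090 and Parp2, the minor break-sensing relative of PARP1, at 0.06 in the authors' deposited table. The sign of Lig3 turns with centring (0.013). Intervals of all 6 tested genes lay within 2-fold.

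Nucleotide excision genes, which cut out bulky and ultraviolet lesions, were split into 4 higher and 4 lower, with a median log2 fold change of -0.03. Ercc1, which with XPF makes the incision on the 5′ side, stood at -0.64 (-1.43 to 0.15, p = 0.112, adjusted p = 0.871, pooled total 99.7) in the authors' deposited table. Its nuclease partner Ercc4 (XPF) was at 0.01 and Ercc5 (XPG), which makes the incision on the 3′ side, at 0.09 in the authors' deposited table. Of the helicases of TFIIH, Ercc2 (XPD) stood at -0.07 and Ercc3 (XPB) at 0.13. Of the damage recognition genes, Xpc stood at -0.26, Xpa, which verifies the lesion, at 0.31 and Ddb1 at -0.10 (-0.40 to 0.21) in the authors' deposited table. Ddb2, the ultraviolet lesion sensor, had -0.15 and no adjusted p. The mismatch repair genes Msh6, which recognises single mismatches, and Pms2, of the endonuclease step, stood at -0.37 (-0.86 to 0.13, p = 0.144, adjusted p = 0.893, pooled total 615) and -0.17 in the authors' deposited table, and 6.74% of the windows of Pms2 are shared with other genes, so its reads are uncertain.

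Other genes of the pathway, from lists chosen with earlier results of these data known, gave 0 called of 68 tested, against 0.529% of all tested genes. Of the 68, 33 were higher and 35 lower, with a median log2 fold change of -0.01. An unadjusted p under 0.05 was found for 3 of them (4.41%), against 7.02% of all tested genes. Topbp1, which activates ATR, stood at -0.93 (-1.65 to -0.22, adjusted p = 0.380), and Blm, the helicase that dissolves recombination intermediates, at -0.89 (-1.66 to -0.11, adjusted p = 0.572) in the authors' deposited table. Xrcc2, a recombinase paralogue, stood at 0.80 (0.03 to 1.57, adjusted p = 0.671) in the authors' deposited table. By list, 10 of 19 tested checkpoint genes, 8 of 17 recombination and Fanconi genes, 1 of 4 end joining genes and 14 of 28 excision and mismatch genes were higher. Lower values made up 51.5% of this wider set, against 66.7% of the members, and the difference between the sets was not tested.

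**Figure D3:**
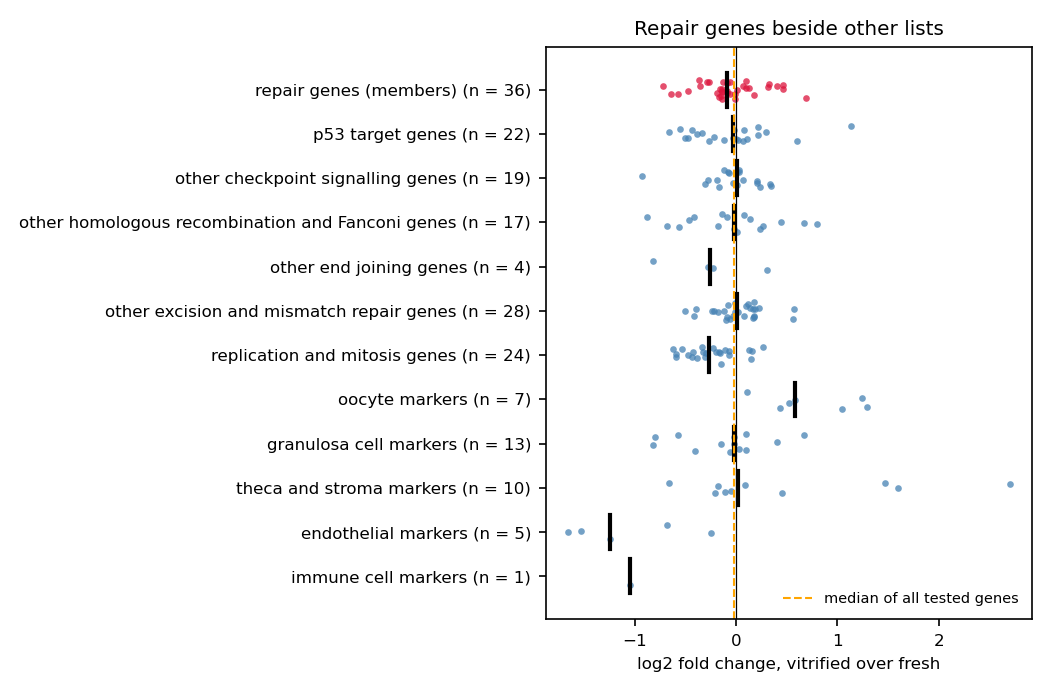
Log2 fold change, vitrified over fresh, of each tested gene (points) in the repair genes and in the other lists, with the median of each list (black bar). Repair genes (red) have a median of -0.09, replication and mitosis genes -0.26 and oocyte markers 0.58.

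Markers of cell division and cell type were read from the same comparison, because repair genes are known to be richer in dividing cells and in oocytes. Of 24 tested replication and mitosis genes 20 were lower and 4 higher, and the median was -0.26 on the log2 scale. Lower values made up 83.3%, against 53.2% of all tested genes. Among them 0 were called, where 0.529% of all tested genes were. With an unadjusted p under 0.05 there were 3 (12.5%), all lower, against 7.02% of all tested genes. Mcm3, a subunit of the replicative helicase, stood at -0.63 (-1.09 to -0.17, adjusted p = 0.333). Mki67, the proliferation marker, was at -0.54 (-0.98 to -0.10, adjusted p = 0.488). Cdk1, the mitotic kinase, was at -0.60 (-1.13 to -0.06, adjusted p = 0.591) in the authors' deposited table. All 7 tested oocyte markers, of 16 listed, were higher, with a median of 0.58, 0 called and 0 at an unadjusted p under 0.05. Of the 2 markers without an adjusted p, Nlrp5 stood at 0.92 (unadjusted p = 0.205). Dazl went the other way, at -2.14 (unadjusted p = 0.0030) on a pooled total of 44.3 in the authors' deposited table. Granulosa markers were abundant, with 13 of 14 tested, pooled totals up to 1121843 and a median of -0.02 that turns in sign with centring. With 0 called, 3 of the 13 (23.1%, against 7.02% of all tested genes) had an unadjusted p under 0.05 and went both ways. The follicle-stimulating hormone receptor gene Fshr stood at 0.67, the activin antagonist gene Fst at -0.82 and the inhibin and activin subunit gene Inhbb at -0.57 in the authors' deposited table. Of the other marker lists, theca and stroma genes were split into 5 higher and 5 lower, from -0.67 to 2.70, with a median of 0.02. Of the 10, 2 (20%, against 7.02% of all tested genes), both higher, had an unadjusted p under 0.05. The theca genes named here are those of lowest p, and all were higher. The theca hormone gene Insl3 stood at 2.70 (1.06 to 4.34, adjusted p = 0.144) and the cholesterol transfer gene Star at 1.60 (0.66 to 2.53, adjusted p = 0.111). The androgen synthesis gene Cyp17a1 was at 1.47 (-0.04 to 2.97, adjusted p = 0.735) in the authors' deposited table. The 5 tested endothelial genes were all lower (median -1.25), with 0 at an unadjusted p under 0.05. Even Cdh5, their member of lowest p, stood at -1.66 with a wide interval that includes 0 (-3.45 to 0.13). Of 8 immune genes only Lyz2 was tested, at -1.05 (-2.05 to -0.05, adjusted p = 0.669). Calls in these lists numbered 0. The part of cell division and cell makeup in the repair genes' values was not tested, and in whole follicles fewer cells of a type and less RNA per cell cannot be told apart.

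Neighbouring genes were set beside the members of lowest p, because reads from shared exons cannot be assigned where counting ignores strand, which the sources used here do not state. Exon bases shared with a gene on the other strand were annotated for 17 of the 38 members. Mre11a shares 154 exon bases with its head-to-head neighbour Ankrd49, itself at -0.27 (-0.94 to 0.40) in the authors' deposited table. Apex1 faces Osgep, a tRNA modification gene, at -0.10, and overlaps by 877 exon bases with Pip4p1, itself at 0.37 (-0.15 to 0.89) in the authors' deposited table. Ercc1 shares 106 bases with Cd3eap, an RNA polymerase I subunit gene, at -0.46, and Msh6 shares 34 bases with Fbxo11 at -0.11 in the authors' deposited table. Xrcc4, with a pooled total of 74.5, shares 112 bases with Tmem167, whose pooled total was 935. Tmem167 stood at -0.03 (-0.46 to 0.39) where Xrcc4 stood at 0.69. How many reads of Xrcc4 could come from Tmem167 was not tested. For the other pairs whose stretches are printed, Npat stood at 0.10 beside Atm at 0.46, and Wrap53 at 0.16 beside Trp53 at 0.18 in the authors' deposited table. Across 12 head-to-head pairs in which both genes were tested, 9 had the same sign and 3 opposite signs. Neighbours ranged from -0.67 to 0.41, with 0 called and 0 at an unadjusted p under 0.05, against 0.529% and 7.02% of all tested genes.

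**Figure D4:**
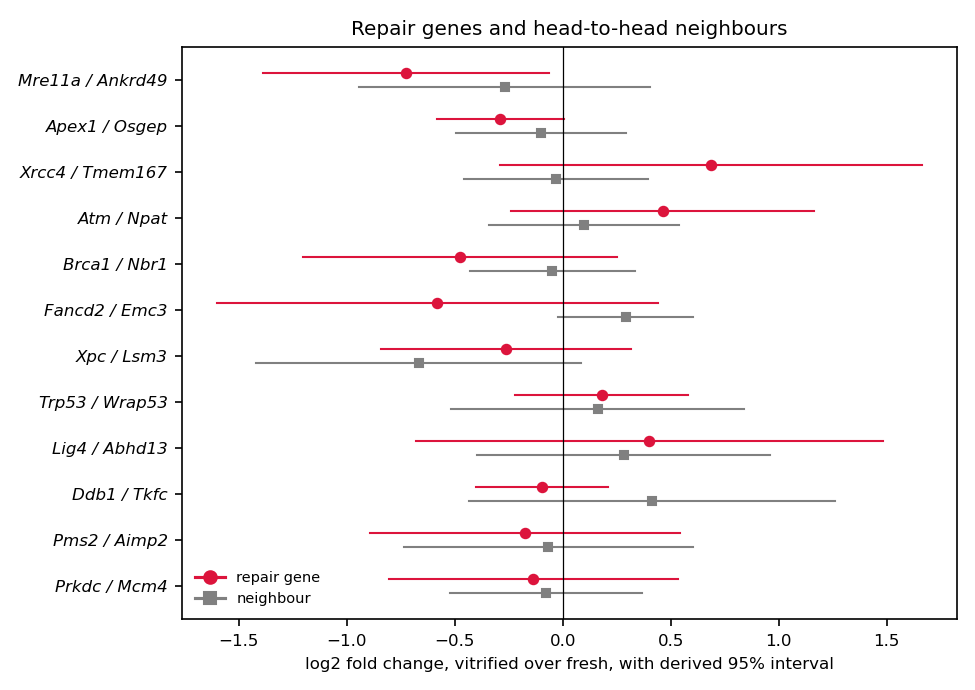
Log2 fold change, vitrified over fresh, of 12 tested repair genes (red circles) and their head-to-head protein-coding neighbours (grey squares), with derived 95% intervals. Neighbours range from -0.67 to 0.41 and all of their intervals cross 0.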

How the data were processed

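Single-follicle RNA-seq libraries (6 fresh, 6 vitrified) were analysed through 1 table of the authors' comparison. The authors deposited, per the file headers, 1 row per gene with a pooled total (read here as a signal over all libraries), the p-value and its step-up adjustment, a fold change with a sign (a score, not a ratio) and the log2 fold change. Totals were not used as counts, because only 0.237% of them are whole to within 0.001. DESeq2, Partek, HISAT2 and Bowtie2 and the build mm10 are named in the submitters' processing notes, without roles. The sources used here do not give how reads were counted, whether by strand, on which annotation, or the test.

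The planned count model was not used, since no value per follicle is given. Calls are the authors' adjusted p under 0.05, given for the 10963 genes with a total of at least 59.45. Intervals of 95% were derived from log2 fold change and p by a two-sided normal distribution. This step was run on data simulated from the same normal distribution, which checks its arithmetic only. That run cannot show whether the intervals hold for these follicles. Which errors the intervals hold depends on the authors' test, so counting error and spread between follicles cannot be separated. Coordinates, neighbours and exon lengths came from GENCODE mouse release 21 (GRCm38, called mm10), in which all 38 members were found, and 50-base windows, taken every 25 bases, were compared with other genes' transcripts (Python 3.11.15, scipy 1.17.1). Promoters came from RefSeq (GRCm38.p6). Members and lists were chosen with earlier results of these data known. Named genes were every member, with full values for an unadjusted p under 0.05 and for the lowest p in each role, called or otherwise at most 4 genes of lowest p per list, and at most 6 neighbour pairs. Dazl, Nlrp5, Npat, Wrap53 and the per-length levels were chosen after their values were seen. Alternatives were no filter on totals, a total of at least 120, a threshold of 0.1, a t distribution of 10 degrees of freedom, centring on the median and a bound of 1.5-fold.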

Additional observations from a re-analysis of the deposited data

How the results depend on the processing

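The count of called repair genes was 0, and that of the p53 targets and other repair lists together 0, with no filter on totals, at a total of at least 120, at a threshold of 0.1 and with a t distribution of 10 degrees of freedom. The lowest adjusted p of a member, that of Parp1, was 0.386 with no filter and 0.329 at a total of at least 120. With the t distribution the call count over all genes was 0 in place of 58, so that setting could not show a change in any gene, and the lowest adjusted p of a member was 0.9996. The members' median of -0.09 became -0.07 after centring and -0.10 at a total of at least 120. Intervals lay within 1.5-fold for 8 members in place of 25 within 2-fold, and within 2-fold for 24 by the t distribution. By the t distribution the interval of Mre11a (-1.48 to 0.027) included 0, and that of Parp1 (-0.66 to -0.049) stayed below 0. Signs turned after centring for Mdm4 (0.014), Lig3 (0.013), the p53 axis median (0.014) and the granulosa median (0.0024), and at a total of at least 120 for the medians of end joining members (-0.14), other recombination and Fanconi genes (0.047) and other end joining genes (0.013), where fewer genes remained. No paired analysis was possible because the table holds no value per follicle, and for the same reason leaving out single follicles and a DESeq2 refit were not run. For the 6 tested members with totals under 100, the intervals include a 2-fold difference.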
